A study of Homo sapiens with 4 samples.

Results

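Mitochondrial complex I is represented in the mitochondrial genome by 7 protein-coding genes, MT-ND1, MT-ND2, MT-ND3, MT-ND4L, MT-ND4, MT-ND5 and MT-ND6. The regions recovered with Argonaute proteins were collected for these genes from one pooled PAR-CLIP list of HEK293 cells, a human embryonic kidney line. A region was a member where it overlapped one of the genes by at least 1 nt on the strand that encodes it. This gave 34 sense regions out of 211947 in the list and out of 188 on the mitochondrial chromosome, 29 of them plus-strand and 5 minus-strand regions. Antisense regions were counted apart and numbered 48, and 2 of them were also sense regions of another of the genes. In PAR-CLIP, cells take up a photoreactive uridine analogue, ultraviolet light links the bound RNA to protein, and the RNA that comes down with the chosen protein is sequenced. The series holds 3 AGO1 libraries and 1 AGO2 library. For AGO1, cells with stable expression of a His/FLAG/HA-tagged protein received 200 µM 4-thiouridine and the FLAG tag was precipitated. For AGO2, the library's labels name no tag, 100 µM 4-thiouridine was given and an antibody to AGO2 itself was used, while the series text speaks of tagged lines for both proteins. All cells were labelled for 16 h and crosslinked at 365 nm. The list has 1 score per region and no value per library, so AGO1 and AGO2 could not be compared, no value has a replicate error and no test between groups was possible. Depth is unknown, and the intervals given for shares cover counting error only.

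Complex I takes electrons from NADH, hands them to ubiquinone and pumps protons across the inner mitochondrial membrane. Its mitochondrially encoded subunits form the core of the membrane arm, and all the other subunits are encoded in the nucleus. Mitochondrial DNA is transcribed on both strands into long precursors, and most mRNAs are released where tRNAs are excised from between them. MT-ND6 is the only mRNA of the group that comes from the opposite strand, and MT-ND4L and MT-ND4 share one mRNA with overlapping reading frames. These mRNAs are made and translated inside mitochondria, whereas Argonaute proteins carry microRNAs and are best known for their work in the cytoplasm.

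The complex I mRNAs were covered densely, and the strand that carried more score was the plus strand at all 7 genes, although at MT-ND3 this rested on 1 region and did not hold with scores above 100 set to 100 (ratio of plus to minus 0.998). Regions on the sense strand lay over 80.1% of the nucleotides of the genes, against 62.8% for antisense regions. On the plus strand, cover was 82.5% in the 6 plus-strand genes and 63.4% on the rest of the strand. On the minus strand it was 61.2% opposite these genes and 32.6% on the rest. The score of a region, as deposited by the authors, is a whole number from 1 to 1000 whose meaning is not stated. Here the score of each region was split by the share of its nucleotides inside a gene, summed and given per kb of gene. Over the 7 genes this level was 988 per kb on the sense strand and 139 per kb on the antisense strand, a ratio of 7.11. With that exception, the sense strand was the higher one for the 6 plus-strand genes, and for MT-ND6 it was the lower one. The amount of mitochondrial RNA was not measured, so RNA level and Argonaute occupancy cannot be told apart in any of these values.

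**Figure D1:**
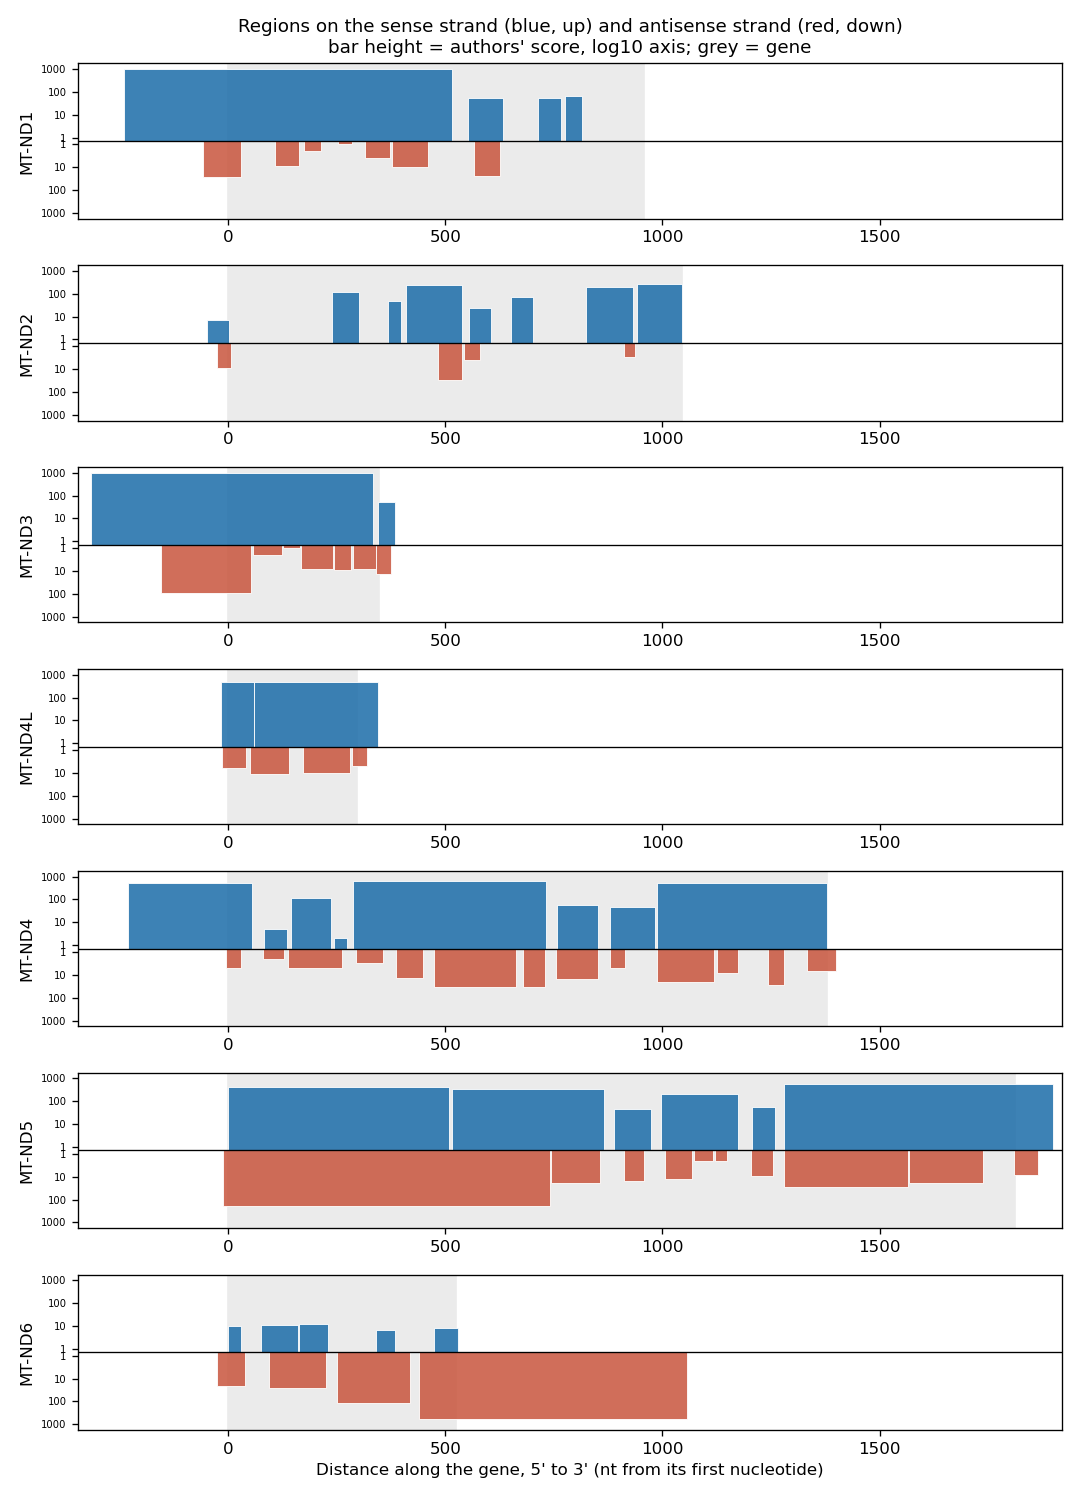
Regions at each of the 7 genes, drawn from the 5′ to the 3′ end of the gene (horizontal axis, nt from the first nucleotide of the gene, grey band). Bars are regions at their true width, with the authors' score on a log axis, sense upward in blue and antisense downward in red; sense bars are the taller ones at most places in 6 genes, and the antisense bars are the taller ones at MT-ND6.

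MT-ND1, which sits where the membrane arm meets the arm that delivers electrons and helps to form the ubiquinone site, lies at chromosome M 3308 to 4264 on the plus strand of hg19. It had 4 sense regions. The one at 3067 to 3821 was 755 nt wide and stood at 1000, the ceiling of the list, where 7 regions stand and below which the next score is 925. This region began upstream of the gene, where the RefSeq gene order places a leucine tRNA and, before it, the large ribosomal RNA, and 68.1% of its nucleotides lay inside MT-ND1. The other regions were much lower, with scores of 66 at 4083 to 4122, 55 at 3860 to 3940 and 53 at 4022 to 4074. Signal on MT-ND1 was highest toward its 5′ end through this 1 region alone. With the gene cut into 3 parts of equal length, the level was 1325 per kb in the 5′ part, 982 in the middle part and 373 in the 3′ part, and no sense region lay on the last 142 nt. Without the region at the ceiling the order turned, with 0 in the 5′ part, 172 in the middle part and 373 in the 3′ part. Of the 7 antisense regions the highest had a score of 26, at 3250 to 3336. The sense level was 893 per kb, against 62.3 per kb antisense, a ratio of 14.3. If scores were cut at 1000, which is not stated, the sense sum is a lower bound. Without the region at the ceiling the ratio was 2.92.

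MT-ND2, MT-ND4 and MT-ND5 encode the large antiporter-like subunits of the membrane arm, which take part in moving protons. MT-ND2 (4471 to 5514, plus strand) carried 8 sense regions of moderate width, 30 to 129 nt. Its highest scores were 255 at 5412 to 5514, 253 at 4880 to 5008 and 195 at 5295 to 5402. Its signal lay toward the 3′ end. The level was 354 per kb in the 5′ part, 1132 in the middle part and 1314 in the 3′ part. No sense region lay on nucleotides 2 to 239 of the gene, and 51.0% of the gene lay under sense regions. Antisense signal was sparse, with 4 regions on 11.8% of the gene and a highest score of 29 at 4953 to 5007. The sense level of 933 per kb stood against 36.1 per kb antisense, a ratio of 25.9. One of the 8 sense regions, with a score of 7, ended on the first nucleotide of the gene and belongs to it by 1 nt only.

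MT-ND4 (10761 to 12138, plus strand) was covered nearly end to end, with sense regions on 91.7% of its length. Its 8 sense regions had scores from 2 to 654 with a median of 84.5. The highest were wide, 444 nt at 11049 to 11492 with a score of 654 and 392 nt at 11748 to 12139 with a score of 541. The next, with a score of 498 at 10531 to 10814, began inside MT-ND4L and reached 54 nt into MT-ND4. Regions 29 to 104 nt wide stood between them, with scores of 5, 112, 2, 57 and 47 in order along the gene. The level was similar in the 3 parts of the gene, 1014 per kb in the 5′ part, 1039 in the middle part and 1237 in the 3′ part. Each score was spread evenly over its region, so where signal lies inside a wide region is unknown. By region, the score per 10 nt of width ran from 0.69 at 11004 to 11032 to 17.5 at 10531 to 10814. MT-ND4 had 13 antisense regions, more than any other gene of the group, but their highest score was 33, at 11234 to 11423 and at 11439 to 11489. Sense and antisense levels were 1097 and 128 per kb, a ratio of 8.58.

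MT-ND5 (12338 to 14149, plus strand), the longest gene of the group, had 6 sense regions on 94.0% of its length. Scores of 585 at 13618 to 14236, 443 at 12336 to 12846 and 355 at 12854 to 13202 were the highest, and the lowest was 45. As on MT-ND4, the parts had similar levels, 879 per kb in the 5′ part, 860 in the middle part and 923 in the 3′ part. The even spread of each score over its wide region limits this in the same way. The antisense strand held the only complex I region of high score that lay on the minus strand, 753 nt wide at 12326 to 13078 with a score of 191. That region spanned 741 nt of MT-ND5 and lay opposite both sense regions at the 5′ end of the gene. The antisense level of MT-ND5 was 254 per kb in the 5′ part, against 142 in the middle part and 89.1 in the 3′ part. Over the gene the levels were 887 per kb sense and 161 per kb antisense. The ratio of 5.50 was the lowest among the 6 plus-strand genes under this measure.

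**Figure D2:**
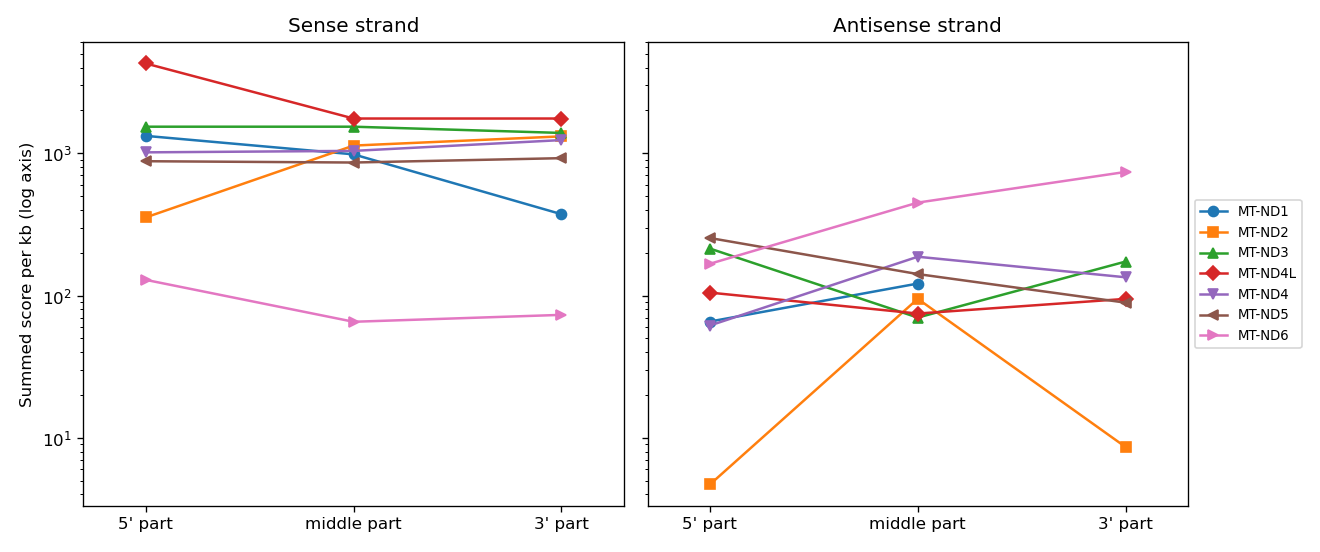
Summed score per kb (log axis) in 3 parts of equal length of each gene, 5′, middle and 3′, sense strand on the left and antisense strand on the right, 1 line per gene. The sense level of MT-ND1 was 1325 in its 5′ part and 373 in its 3′ part, with 0 in the 5′ part once the region at the ceiling was left out. MT-ND2 was lowest in its 5′ part, and MT-ND4 and MT-ND5 were similar across parts, with each score spread evenly over its region. The antisense value of 0 in the 3′ part of MT-ND1 cannot be drawn on a log axis.

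MT-ND3, MT-ND4L and MT-ND6 encode small subunits that pack between MT-ND1 and the antiporter-like subunits. MT-ND4L (10471 to 10767, plus strand) had the highest level of the 7 genes, 2594 per kb on the sense strand, against 91.4 per kb antisense. The ratio was 28.4. Only 2 sense regions made up this level, with a score of 457 at 10454 to 10529 and the score of 498 shared with MT-ND4, and a single nucleotide lay between them. The first of these was 76 nt wide and had 60.1 units of score per 10 nt of width, against a median of 10.5 over the 34 sense regions. The 5′ part of the gene reached 4274 per kb, against 1754 in the middle part and in the 3′ part. Each score was spread evenly over its region, and the equal values are those of the region with a score of 498. The 4 antisense regions had scores of 5 to 11, the highest at 10521 to 10610. MT-ND4L kept the highest sense level under every alternative tried for this measure.

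MT-ND3 (10060 to 10405, plus strand) rested on a single region. This region, 651 nt wide at 9743 to 10393, stood at the ceiling of 1000 and had 51.3% of its nucleotides inside the gene. It began upstream, beyond the glycine tRNA that precedes MT-ND3 in the RefSeq gene order, and its 1-nt inner position, 10046, lay before the start of the gene. The other sense region, with a score of 52 at 10405 to 10443, overlapped MT-ND3 by 1 nt. The sense level was 1487 per kb, against 152 per kb antisense, a ratio of 9.75. Without the region at the ceiling, the sense level was 3.85 per kb and the ratio 0.0253, so that the antisense strand was then the higher one. The 7 antisense regions followed each other closely along the gene on 95.4% of its length, and the highest, with a score of 90 at 9904 to 10112, also began outside the gene.

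MT-ND6 (14150 to 14674, minus strand) differed in strand and in level. Its 5 sense regions had scores of 12 at 14446 to 14511, 11 at 14514 to 14598, 10 at 14645 to 14676, 8 at 14146 to 14201 and 7 at 14292 to 14334. They were narrow, 32 to 85 nt, and lay on 52.6% of the gene. On the plus strand opposite the gene, 4 regions had scores of 22 at 14637 to 14700, 26 at 14451 to 14580, 116 at 14256 to 14425 and 585 at 13618 to 14236, the last of them being the sense region that crosses the 3′ end of MT-ND5. As background, the human MT-ND5 mRNA has a long 3′ untranslated part that is complementary to MT-ND6. The sense level was 89.1 per kb, against 452 per kb antisense, so the antisense strand was 5.07 times as high. Each of the 5 sense regions lay opposite a plus-strand region of higher score, by 2.17 to 73.1 times. Going along MT-ND6 from its 5′ to its 3′ end, and so toward MT-ND5, the antisense level was 167, 450 and 739 per kb in the successive parts. Without the region shared with MT-ND5 the ratio of sense to antisense was 0.302, in place of 0.197.

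**Figure D3:**
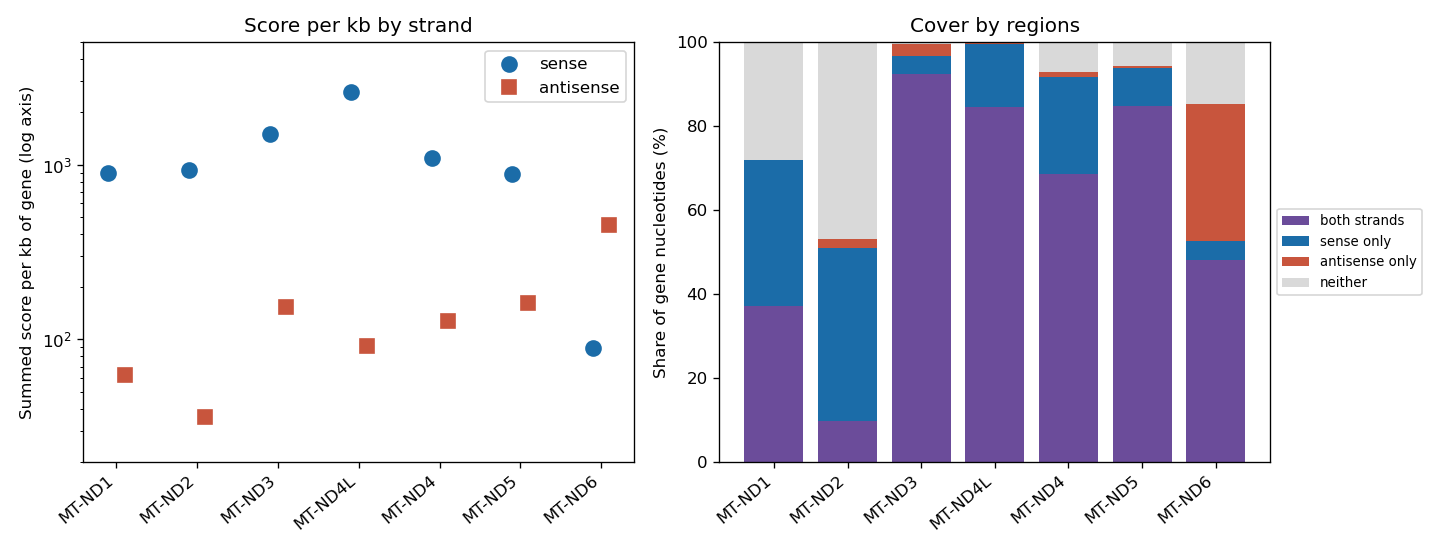
Left, summed score per kb of gene (log axis) on the sense strand (blue circles) and the antisense strand (red squares) of the 7 genes; right, share of each gene's nucleotides (%) under regions of both strands, of the sense strand only, of the antisense strand only, or of neither. Sense lay above antisense at 6 genes, through 1 region alone at MT-ND3, and below it at MT-ND6 (89.1 against 452 per kb), and cover by neither strand was highest at MT-ND2 (46.9%).

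By sense level the order was MT-ND4L, MT-ND3, MT-ND4 (1097 per kb), MT-ND2 (933), MT-ND1 (893), MT-ND5 (887) and MT-ND6. The 6 plus-strand genes lay within a factor of 2.92 of each other, and MT-ND6 lay 29.1 times below MT-ND4L. With no replicates, the neighbours MT-ND2, MT-ND1 and MT-ND5 cannot be ordered, and other ways of assigning the score changed the place of every gene but MT-ND4L. Where the whole score went to the gene holding the inner position, MT-ND3 had 0 and stood last. MT-ND6 was last under the other ways of assigning the score except without the regions at the ceiling, where MT-ND3 (3.85 per kb) was below it. With scores above 100 set to 100, MT-ND6 stood at 89.1 and MT-ND3, next above it, at 152.

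Antisense regions lay for the most part opposite sense regions. Of the nucleotides under antisense regions, 94.2% were also under sense regions, against 80.1% of all gene nucleotides. Both strands had regions over 59.2% of the gene nucleotides. Outside the genes, all 45 mitochondrial minus-strand regions likewise overlapped a plus-strand region. An overlapping region on the other strand was found for 28 of the 34 sense regions (82.4%, Wilson 95% interval 66.5 to 91.7), whereas 0.379% of the regions in the whole list had one. For the 29 sense regions on the plus strand the share was 23 (79.3%, 61.6 to 90.2). Among other plus-strand mitochondrial regions, which overlap none of the genes, the share was 37 of 63 (58.7%, 46.4 to 70.0). These intervals overlap and the difference was not tested. The shares were not set by width. Median widths were 92 nt for the 29 regions, 57 nt for the 63 and 32 nt on other chromosomes and contigs. The 6 sense regions with no partner lay on MT-ND1 and MT-ND2. On the plus strand, 23 sense regions had a partner, and 21 of them scored above the highest of their partners. The median factor over that highest partner was 8.72 over the 23. Wide regions had several partners, up to 8 at 9743 to 10393, with a summed score of 125 and a highest of 90. The exceptions were a region with a score of 7 at the start of MT-ND2, opposite a score of 9, and a region with a score of 2 in MT-ND4, opposite a score of 5. On the minus strand, the level over all 7 genes ranged from 36.1 per kb at MT-ND2 to 161 per kb at MT-ND5, with MT-ND6, whose own mRNA is on that strand, inside this range at 89.1.

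Regions often ran to, or across, the ends of the genes. Of the 14 gene ends, 12 were crossed by a region of the sense strand. At the 5′ end of MT-ND2 and the 3′ end of MT-ND3 this was by 1 nt on the gene's side. Sense regions lay on 80.1% of all gene nucleotides, and whether gene ends differ from other positions was not tested. A region edge of the same side lay within 5 nt at 5 of the 14 ends. The region at 11748 to 12139 ended 1 nt past the end of MT-ND4, where the RefSeq order has a histidine tRNA, and the first region of MT-ND5 began 2 nt before the gene. The last region of MT-ND2 ended at 5514, the end of the gene as defined here, which is 2 nt longer than its RefSeq entry. Both ends of MT-ND6 were within 4 nt of a region edge. Across MT-ND3, MT-ND4L and MT-ND4 the plus-strand regions were almost contiguous: 11 regions covered 93.4% of the stretch, with gaps of 1 to 28 nt. From MT-ND1 to MT-ND2, 13 plus-strand regions covered 60.0%, with gaps of 8 to 238 nt. Whether neighbouring regions a few nt apart are separate sites was not tested.

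Scores on complex I mRNAs were high against the list as a whole. The median score of the 34 sense regions was 61.5 (interquartile range 30 to 330), against 9.5 (5.0 to 22.8) for the 48 antisense regions and 3 (2 to 5) for 211759 regions on other chromosomes and contigs. Scores of 100 or more were held by 15 of the 34 (44.1%, Wilson 95% interval 28.9 to 60.5), where 0.264% of all regions in the list did so. All 15 lay on the plus strand, and the 5 sense regions of MT-ND6 were all below that score. Among the 63 other mitochondrial plus-strand regions 15 had such scores (23.8%, 14.99 to 35.6). Those intervals overlap, and no test of the difference was made. Of the 34, 10 were among the 100 highest scores of the list, and a single one, with a score of 2, was at or below the median of the other chromosomes. Per kb, the sense level over the 6 plus-strand genes was 1068, against 734 on the rest of the plus strand, and without regions at the ceiling the values were 863 and 565. On the minus strand the levels were 111 per kb opposite the 6 genes and 112 per kb on the rest of that strand.

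**Figure D4:**
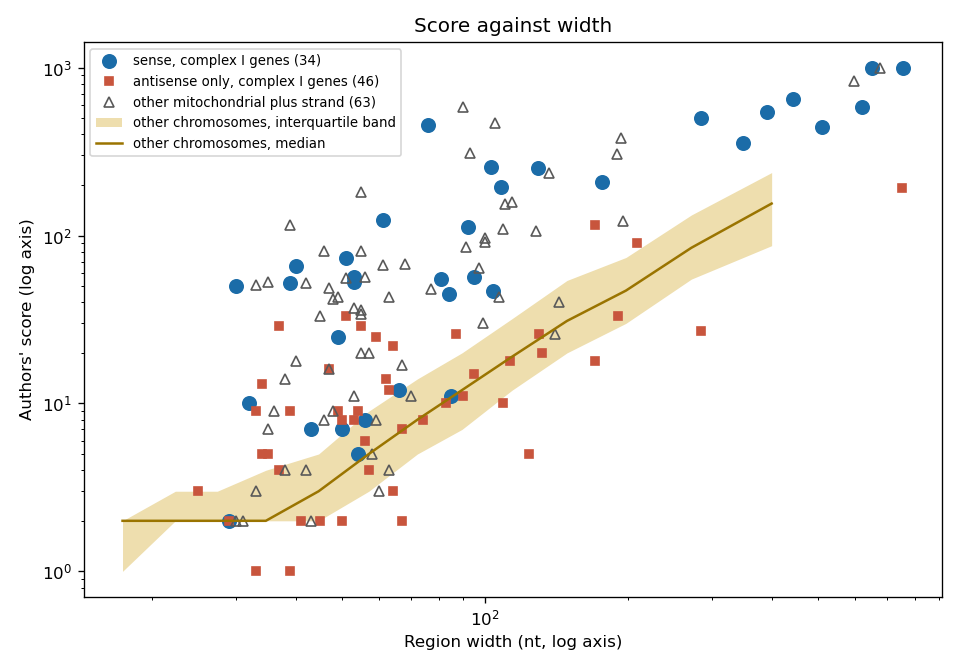
Authors' score against region width (nt), both on log axes, for the sense regions of complex I genes (blue circles), the regions antisense to them (red squares), the other mitochondrial plus-strand regions (open triangles) and the interquartile band and median of regions on other chromosomes and contigs (band and line). Regions that are sense to a gene and antisense to another are drawn as sense. Of the sense regions, those 200 nt or wider had scores of 355 to 1000, above the line, while the 5 of MT-ND6 (scores of 7 to 12) lay among the antisense regions.

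The median score was higher in wider classes of regions in every set, and the sense regions were wider than most. Their median width was 82.5 nt (interquartile range 51.5 to 164). It was 57 nt for other mitochondrial plus-strand regions, 58 nt for antisense regions and 32 nt on other chromosomes and contigs. Set by width, the sense regions had higher medians than antisense regions and than regions on other chromosomes and contigs in the 3 classes given here. At 50 to 99 nt the median score was 54 for 14 sense regions, against 9 for 21 antisense regions, 37 for 25 other mitochondrial plus-strand regions and 6 for 31688 regions on other chromosomes and contigs. At 200 nt or more it was 563 for 8 sense regions, against 140.5 for 4 antisense regions. The highest of these 4, with a score of 585, is also among the 8 sense regions. It was 916.5 for 2 other mitochondrial plus-strand regions and 79.5 for 250 on other chromosomes and contigs. Here the other mitochondrial plus-strand regions were the higher ones. At 15 to 49 nt the medians were 25 for 7 sense regions, 5 for 15 antisense regions, 15 for 22 other mitochondrial plus-strand regions and 2 for regions on other chromosomes and contigs. Regions are not replicates of each other, so these are descriptions.

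Nuclear copies bear on how reads could be placed. The RefSeq gene table lists 255 pseudogenes named for the 7 genes, from 25 for MT-ND3 to 45 for MT-ND5. The sources used here do not say how reads that match both a mitochondrial gene and such a copy were assigned, and its part in these values was not tested.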

How the data were processed

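The deposited data were 1 list of regions for pooled libraries. Per the file headers, the coordinates are those of hg19, the library set is called AGO_good, and 0.05 stands in the name of a filter. The tool named is BWA 0.5.8c, per the submitters' processing notes. The sources used here name neither the region caller nor the libraries pooled. Scores are whole numbers of unstated meaning, as deposited by the authors, and the deposited start, end and inner position are coordinates (printed counting from 1).

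Gene limits on the mitochondrial chromosome (16571-nt version) were chosen with earlier results of these data known, as were the members, lists and measures, and all 7 genes are named. Regions are named where they have 1 of the 3 highest sense scores or the highest antisense score of their gene, or overlap 2 genes; others named were chosen after their values were seen. Gene lengths were within 2 nt of RefSeq (GRCh38.p14), from which names, order and pseudogene counts were taken. The planned count for nuclear complex I genes was not run, since hg19 positions were not used here, and AGO1 against AGO2 was not run. Wilson intervals are at 95%. Functions were tested on 2000 simulated regions. Python 3.11.15, numpy 2.4.6, pandas 2.3.3 and matplotlib 3.10.9 were used.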

Additional observations from a re-analysis of the deposited data

How the results depend on the processing

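Other settings, 16 of the values among them from choices added after seeing the data, gave 133 values, of which 99 stayed within 1.5 times of the reported value or, for shares, within its Wilson interval. For cover, the interval counted each nucleotide as a unit, although neighbouring nucleotides of a region are not independent. Some of the 99 could not change. No sense region had a score below 2, so a lowest score of 2 removed none. Only MT-ND1 and MT-ND3 had sense regions at the ceiling, so leaving those out left the other genes as they were. Over the 7 genes, the sense level of 988 per kb was 309 with scores above 100 set to 100, and the ratio of sense to antisense of 7.11 was 2.77 with the same setting, which lowers the highest scores. The cover of 80.1% was 77.3% with scores of at least 10. The share of high scores of 44.1% was 67.6% with a high score set at 50. Both settings change which regions count. At 50, the share was 44.4% for the 63 other mitochondrial plus-strand regions and 0.918% for regions on other chromosomes and contigs. The side of the ratio of sense to antisense held in 26 of 29 values for single genes. These 26 include ratios that could not change, of genes with no region at the ceiling. The exceptions were all MT-ND3, whose ratio of 9.75 was 0 where scores went to the gene holding the inner position, 0.998 with scores above 100 set to 100 and 0.0253 without the regions at the ceiling, because 1 region carries its sense score. Without the regions at the ceiling, the difference of the sense level in the 5′ part minus the 3′ part also changed sign, to -373 per kb at MT-ND1, against 951, and to -11.5 at MT-ND3, against 147. No paired analysis was possible because scores are pooled over libraries. Leaving out a library was not possible either, and the unknown depth limits every value.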
